A study of Mus musculus with 17 samples.

Results

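The genes described here mark the blood cells that a mouse liver holds before birth: the red cell, megakaryocyte and granulocyte lineages. They were chosen by name, as 49 listed genes of haemoglobin, haem synthesis, red cell membrane, platelet and granule proteins. A spot carrying the gene's symbol was found for 37 of them, on 61 spots, among 9030 named genes on arrays of 20794 rows. Of these, 34 could be tested in embryos and 37 in adults. No spot carries the symbol of Hbb-bh1, Hbb-y, Epor, Urod, Cpox, Epb42, Rhag, Ermap, Tfrc, Gp1bb, Ctsg or Csf3r, and for Gata1, Lmo2 and Ppbp the fetal rows were left unnamed, so their values here are those of adults.

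The fetal liver is the main site of blood formation for part of gestation, before the bone marrow takes over. Red cell precursors make up much of its mass and fill with haemoglobin, haem and a characteristic membrane skeleton, while megakaryocytes shed platelets and granulocyte precursors load their granules in a fixed order. In the adult liver little blood is made, and transcripts confined to blood cells come largely from blood inside the vessels and from few resident cells. Not all of the listed genes are confined to blood cells.

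The study compared liver RNA of mice lacking Afp, which encodes alpha-fetoprotein, a major serum protein of the fetus, with wild-type liver RNA on 2-colour cDNA arrays. The mutants were 6 adult males of 17 weeks and 6 embryos, of which embryos 1 to 3 are labelled male and embryos 4 to 6 female. Each mutant was set against a pool of wild-type liver of its own age, made from 6 named animals for the adults and 4 for the embryos, although the labelling protocol gives one pool size, that of the adults, for both. The labels give no strain, allele or treatment. The embryos' age label reads 7.5 E, an age at which a mouse embryo has no liver yet, so what that label means is not settled. The fetal pool carries the same animals throughout but is labelled male for embryos 1 and 2 and female for embryos 3 to 6. The same split appears in the letter of the embryos' names, K for 2 and L for 4.

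All values are log2 ratios of mutant over pool, and a value of 0 means an equal signal. No wild-type animal was measured singly, so the test was of the mutants' ratios against 0, which leaves out the spread between wild-type animals, and any peculiarity of a pool enters all of its arrays alike. In bulk liver, fewer cells of a type and less RNA per cell cannot be told apart. The files hold no intensities, so a marker's absence could not be checked. Afp itself lay between -8.79 and -8.11 in the 6 embryos (limma adjusted p = 1.2e-08), and between -0.19 and 0.34 in the adults, which make little of it. The embryos were hybridised with the mutant in Cy5 only, whereas 5 of the 6 adults were measured in both dye layouts.

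No blood cell gene passed the limma adjusted p threshold of 0.05 in the embryos, where 0.151% of the 17242 features did (26 features). Without adjustment, 11 of the 34 members had p under 0.05, or 32.4%, against 20.8% of all features, with 5 of the 11 above 0 and 6 below. The members' median ratio was -0.02 and that of all features 0.0046. Behind that median the lineages differed in where their members lay: 10 of 19 erythroid genes had a mean above 0 (median 0.006), 3 of 4 megakaryocyte genes did (median 0.30) and 3 of 11 granulocyte genes did (median -0.18), where 51.0% of all features lay above 0. These counts describe the lists and were not tested. All 6 embryos lay above 0 for 5 members (Alad, Car1, Pf4, Itga2b and Gp9), where 8.33% of the features measured in every embryo did. All 6 lay below 0 for 3 members (Hba-a1, Fech and Ltf), where 7.73% did.

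**Figure D1:**
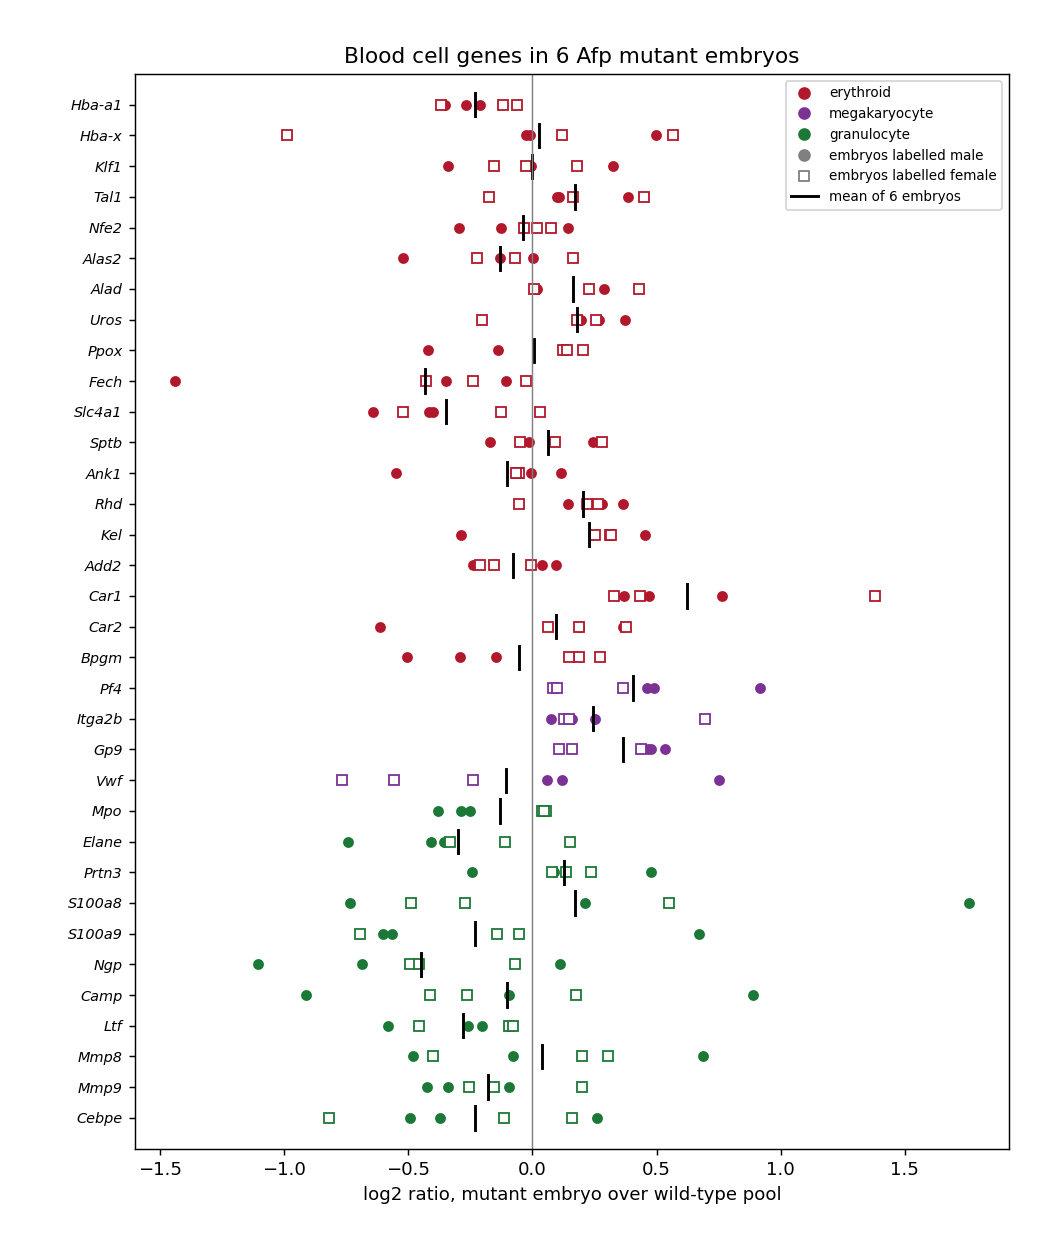
Log2 ratio of mutant embryo over wild-type pool (horizontal axis) for the 34 blood cell genes measured in embryos, 1 row per gene. Filled circles are the embryos labelled male, open squares those labelled female, colours mark the lineage and the black bar is the mean of 6. The megakaryocyte genes Pf4, Itga2b and Gp9 lie wholly to the right of 0, Hba-a1 lies wholly to the left, and S100a8 has the longest row, from -0.74 to 1.76.

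The bases before the start of 5 members are shown, and no ratio was tested against them. Hba-a1 was taken as the red cell gene with the most spots and Gp9 as the member with the smallest p in embryos. S100a8, S100a9 and Ngp were taken as neutrophil genes that ranged widely over the embryos. Each run is the 250 bases before the annotated start in RefSeq, build GRCm38.p6, read 5′ to 3′ on the gene's strand. Capitals mark GATAA or its reverse TTATC (the core that GATA factors bind), CACCC or GGGTG (bound by Klf1 and related factors), TTGCNNAA or TTNNGCAA (the C/EBP half-site pattern) and TATAA on the gene's strand. They come from chr11:32283422-32283671 (plus strand) for Hba-a1, chr6:87777820-87778069 (plus) for Gp9, chr3:90668821-90669070 (plus) for S100a8, chr3:90695722-90695971 (minus) for S100a9 and chr9:110419558-110419807 (plus) for Ngp.
Hba-a1: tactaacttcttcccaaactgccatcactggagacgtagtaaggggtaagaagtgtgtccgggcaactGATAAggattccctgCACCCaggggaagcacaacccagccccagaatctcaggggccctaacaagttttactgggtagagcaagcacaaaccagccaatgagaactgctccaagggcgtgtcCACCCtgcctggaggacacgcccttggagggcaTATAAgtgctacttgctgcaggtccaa
Gp9: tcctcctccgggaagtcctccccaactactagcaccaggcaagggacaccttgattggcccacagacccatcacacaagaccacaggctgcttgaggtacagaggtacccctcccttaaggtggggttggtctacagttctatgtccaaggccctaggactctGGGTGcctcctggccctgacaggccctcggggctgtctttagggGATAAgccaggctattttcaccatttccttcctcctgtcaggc
S100a8: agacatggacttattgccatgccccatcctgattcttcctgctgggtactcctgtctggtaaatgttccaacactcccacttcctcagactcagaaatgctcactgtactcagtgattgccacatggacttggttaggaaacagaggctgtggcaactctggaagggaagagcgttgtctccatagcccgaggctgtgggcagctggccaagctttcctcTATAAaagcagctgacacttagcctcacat
S100a9: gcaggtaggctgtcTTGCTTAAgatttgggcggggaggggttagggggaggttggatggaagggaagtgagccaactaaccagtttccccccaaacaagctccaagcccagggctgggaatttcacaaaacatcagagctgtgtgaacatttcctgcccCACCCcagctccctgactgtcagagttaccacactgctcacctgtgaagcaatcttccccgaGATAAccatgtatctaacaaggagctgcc
Ngp: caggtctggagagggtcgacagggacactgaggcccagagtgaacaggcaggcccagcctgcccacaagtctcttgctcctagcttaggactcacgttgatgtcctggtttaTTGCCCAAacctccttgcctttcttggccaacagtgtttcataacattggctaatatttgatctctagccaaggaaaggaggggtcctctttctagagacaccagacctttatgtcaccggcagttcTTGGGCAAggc

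Of the 49 listed genes, 38 had an entry in the promoter table and 27 of those were measured. GATAA stood in 7 of 14 erythroid, 1 of 4 megakaryocyte and 2 of 9 granulocyte windows, against 22.6% of all 32851 windows of that length. CACCC stood in 10 of 14, 1 of 4 and 7 of 9, against 52.0%. The C/EBP pattern stood in 1 of 14, 1 of 4 and 4 of 9 (S100a9, Ltf, Ngp and Mmp8 in the last), against 9.56%. TATAA stood in 3 of 14, 1 of 4 and 3 of 9, against 5255 of the 32851. Different motifs overlapped in 0 of the 27 windows. A match is a string of letters and no measured site.

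Among the globins, Hba-a1 encodes the adult-type alpha chain of haemoglobin and is the member with the most spots, at 6. Its ratios in embryos 1 to 6 were -0.21, -0.35, -0.27, -0.12, -0.06 and -0.37, with a mean of -0.23 ± 0.12 (SD, n = 6; limma adjusted p = 0.14). Every embryo lay below 0 and the spread was small, lower than in all but 8.78% of the features. The spots differed, however: 5 of the 6 spot means were below 0, from -0.51 to -0.19, and the remaining one was 0.07. Its near-identical copy Hba-a2 would bind the same cDNA, so the value belongs to both genes. Hba-x, the embryonic zeta chain, spread over both sides of 0 in embryos, from -0.99 to 0.57 (median 0.06).

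**Figure D2:**
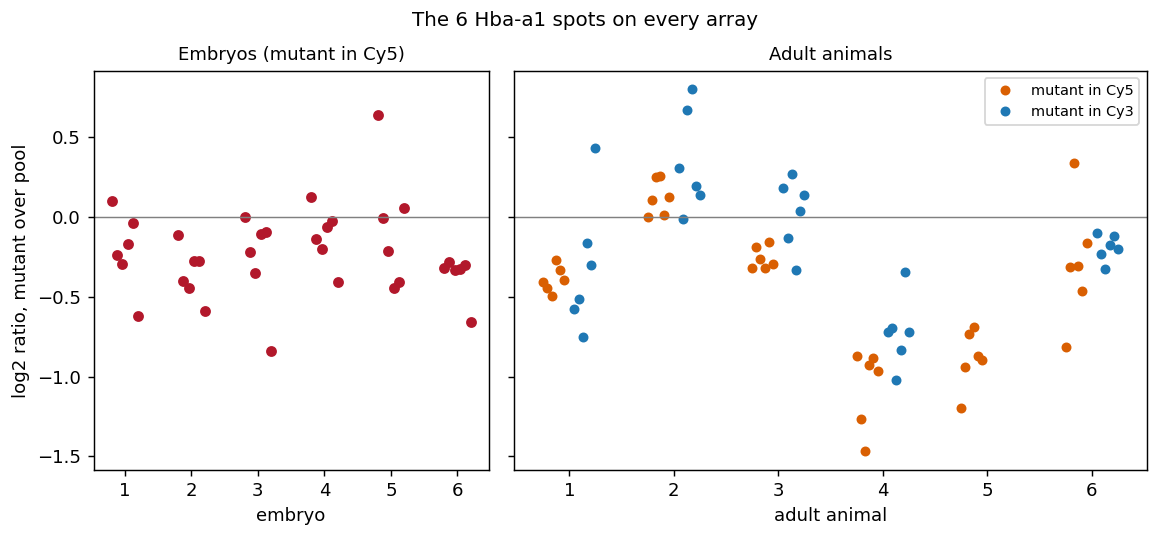
Log2 ratio of mutant over pool (vertical axis) of the 6 Hba-a1 spots on each array, for 6 embryos (left) and 6 adult animals (right, coloured by the dye of the mutant). Adult animals 4 and 5 lie below 0 on all 6 spots, animal 2 has its 6 spots above 0 once its layouts are averaged, and each embryo has most of its spots below 0.

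The erythroid regulators had means near 0 in embryos. Klf1, which switches on adult globin and many red cell genes, averaged -0.0033 ± 0.24 (SD, n = 6). Tal1, a partner of Gata1, averaged 0.17 ± 0.23 and Nfe2, which acts at the globin locus, averaged -0.04 ± 0.16. Each of the 3 had embryos on both sides of 0.

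The haem synthesis genes lay on both sides of 0. Alas2, the red cell form of the first enzyme, ranged from -0.52 to 0.16 in embryos (median -0.10), and Ppox, a late step, from -0.42 to 0.20. Alad, the second step, was above 0 in every embryo but close to it in 3, with 0.01, 0.29, 0.02, 0.23, 0.43 and 0.01. Uros averaged 0.18 ± 0.20 (SD, n = 6) with embryo 6 alone below 0. Fech, which inserts iron into the ring as the last step, was below 0 in every embryo (-1.44, -0.11, -0.35, -0.03, -0.43 and -0.24; mean -0.43 ± 0.52, limma p = 0.043, adjusted p = 0.23). Embryo 1 stood far below the rest through 1 of the 2 spots, at -2.37, while the other spot gave -0.51 there and a mean of -0.43 ± 0.18. Without embryo 1 the Fech mean was -0.23.

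Of the membrane and skeleton genes, Slc4a1, the band 3 anion exchanger, had ratios of -0.42, -0.40, -0.64, -0.13, -0.52 and 0.03 (mean -0.35 ± 0.25, SD, n = 6; limma adjusted p = 0.13). Embryos 1 to 5 were below 0 and embryo 6 was just above. Rhd, the Rhesus protein, went the other way with 0.36, 0.28, 0.14, 0.22, -0.06 and 0.26 (mean 0.20 ± 0.15; limma p = 0.027, adjusted p = 0.18). Kel, a blood group protease, was above 0 in 5 of 6 embryos, at 0.23 ± 0.26 (limma p = 0.060). The spectrin gene Sptb, its anchor Ank1 and the adducin Add2 averaged between -0.10 and 0.06, with embryos on both sides of 0 for each. The spots of Sptb disagreed: 1 was above 0 in every embryo (mean 0.37) and 1 below 0 in every embryo (mean -0.20).

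The carbonic anhydrase Car1, an abundant red cell enzyme, had the highest mean among the members in embryos, with ratios of 0.76, 0.47, 0.37, 1.38, 0.43 and 0.33 (mean 0.62 ± 0.40, SD, n = 6; limma adjusted p = 0.092). All 6 were above 0 and embryo 4 was the highest; without any one embryo the mean stayed between 0.47 and 0.74. Car2, the other abundant red cell carbonic anhydrase, was above 0 in 5 embryos, between 0.06 and 0.38, and at -0.61 in embryo 1. Bpgm, which makes the phosphate that lowers oxygen affinity, averaged -0.06 ± 0.31 and split by the labelled sex through 1 of its 2 spots, as described below.

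The megakaryocyte genes were the lineage with the highest share above 0. Pf4, a platelet chemokine, had ratios of 0.92, 0.46, 0.49, 0.08, 0.10 and 0.37 (mean 0.40 ± 0.31, SD, n = 6; limma adjusted p = 0.13). Gp9, a subunit of the receptor for von Willebrand factor, had 0.54, 0.47, 0.48, 0.11, 0.16 and 0.44 (mean 0.36 ± 0.18; limma p = 0.0024, adjusted p = 0.091), and Itga2b, the alpha chain of the fibrinogen receptor, 0.16, 0.08, 0.25, 0.13, 0.69 and 0.15 (mean 0.24 ± 0.23; adjusted p = 0.20). Without embryo 5 the Itga2b mean was 0.15. For Pf4 and Gp9, embryos 4 and 5 were the lowest. Vwf, which endothelium also makes, spread from -0.77 to 0.75. Each of Pf4, Gp9 and Itga2b rests on 1 spot.

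Granulocyte genes of the primary granule averaged on either side of 0. Elane, neutrophil elastase, had ratios of -0.74, -0.41, -0.36, -0.11, -0.33 and 0.15 (mean -0.30 ± 0.30, SD, n = 6; limma adjusted p = 0.20), with embryo 6 alone above 0. Mpo, myeloperoxidase, averaged -0.13 ± 0.20, and Prtn3, proteinase 3, 0.13 ± 0.23. Cebpe, the factor that drives late granule genes, ranged from -0.82 to 0.26.

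Of the 7 later granule and cytosol genes, S100a8, S100a9, Camp, Mmp8 and Ngp varied more between embryos than most features, while Ltf and Mmp9 had SDs above those of 33.8% and 40.9% of the features. S100a8, a calcium-binding protein that fills neutrophil cytosol, had ratios of 0.21, -0.74, 1.76, -0.49, -0.27 and 0.55, with an SD of 0.91 that exceeded that of 98.1% of the features. S100a9, its partner in calprotectin, had -0.60, -0.57, 0.67, -0.05, -0.70 and -0.14, and Camp, the cathelicidin peptide, -0.09, -0.91, 0.89, -0.41, -0.26 and 0.18, with SDs above 92.1% and 94.8% of the features. Embryo 3 was the highest and, for S100a8 and Camp, embryo 2 the lowest. Of these 7 genes, 5 had their highest value in embryo 3 and 6 their lowest in embryo 2; over all 11 granulocyte members the counts were 7 and 7. In embryo 2, 0 of the 11 lay above 0 (median -0.48), in embryo 3, 7 did (median 0.26), and in embryo 6, 8 did (median 0.15). Embryos 2 and 3 differ in labelled pool and in letter, and 20 further granulocyte, mast cell and eosinophil genes had a median of -0.15 in embryo 2 and 0.23 in embryo 3. Other marker lists also differed between these embryos: stellate cell and fibroblast markers had 1 of 8 above 0 (median -0.23) in embryo 2 and 7 of 8 (0.30) in embryo 3, cholangiocyte medians were -0.11 and 0.42, exocrine pancreas medians -1.45 and -0.57, and lymphocyte genes had 4 of 9 and 8 of 9 above 0. Their part in the granulocyte values was not tested.

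Against that spread, the mean of Ngp, a neutrophil granule protein, was -0.45 ± 0.43 (SD, n = 6; limma adjusted p = 0.16), from -0.69, -1.10, 0.11, -0.50, -0.46 and -0.07, with embryo 3 alone above 0. Ltf, lactoferrin, was below 0 in every embryo, between -0.58 and -0.08 (mean -0.28 ± 0.20, limma adjusted p = 0.14). Only 1 of its 2 spots was below 0 in every embryo, at a mean of -0.49. The other averaged -0.07, with embryos on both sides of 0. Mmp8, the neutrophil collagenase, ranged from -0.48 to 0.69 and Mmp9, gelatinase B, from -0.42 to 0.20. The count of granulocyte members above 0 was 1 of 11 without embryo 3.

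**Figure D3:**
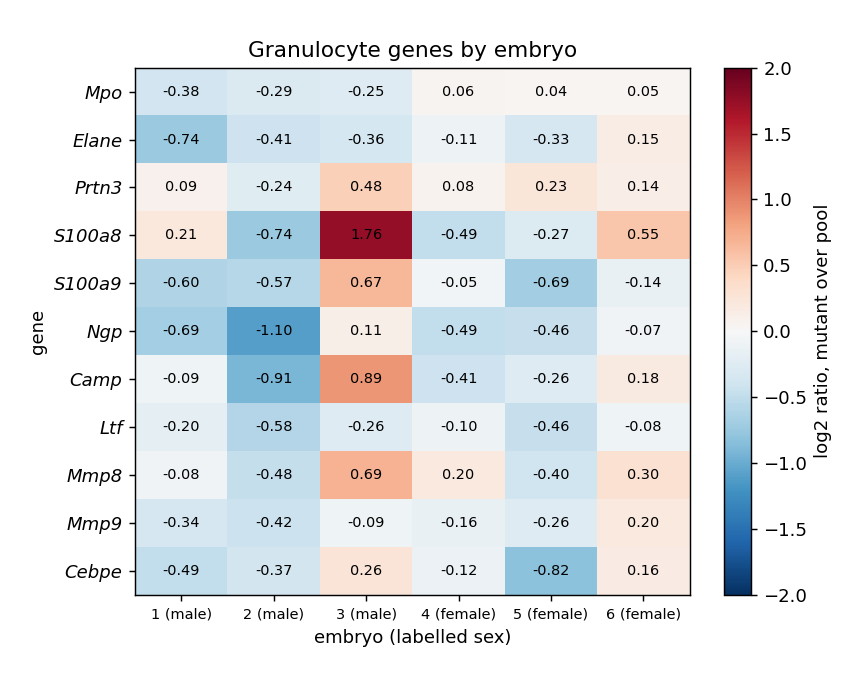
Log2 ratio of mutant over pool for the 11 granulocyte genes (rows) in each embryo (columns), printed in each cell and coloured from blue (below 0) to red (above 0). The column of embryo 2 has no value above 0, and that of embryo 3 holds the reddest cells, led by S100a8 at 1.76.

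Because all fetal arrays carry the mutant in Cy5, a gene's dye effect adds to its fetal ratio. Its size can be taken from the adult dye swaps if the Cy3 arrays were deposited already turned to mutant over pool, which is an inference; it is then the difference between an animal's layouts divided by 2 and averaged over 5 animals. With that profile subtracted and treated as known without error, 14 members passed the limma adjusted threshold, where 30.3% of the features did. The 6 above 0 were Nfe2, Uros, Rhd, Kel, Car1 (0.99, adjusted p = 0.0031) and Pf4 (0.44, adjusted p = 0.025). The 8 below 0 were Tal1, Alad, Bpgm, Itga2b, Vwf, Prtn3, Ngp (-0.74, adjusted p = 0.011) and Ltf (-1.11, adjusted p = 1.3e-04). Itga2b changed sign, from 0.24 to -0.52. So did Tal1 (0.17 to -0.44), Alad (0.16 to -0.27), Prtn3 (0.13 to -0.83) and Nfe2 (-0.04 to 0.29). Hba-a1 moved to -0.13 (limma adjusted p = 0.20). The profiles of Ltf and Vwf each contain 1 adult array value beyond 10 in size, and those subtracted values rest on it. If the Cy3 arrays were not yet turned, the dye profile is another one, and with it subtracted 7 members passed, where 25.7% of the features did: Alad, Car1 (0.78, adjusted p = 0.0077), Gp9 and Itga2b (0.51) above 0, and Nfe2, Prtn3 and Ltf (-0.89) below. Car1, Prtn3 and Ltf passed with the same sign under both readings, whereas Alad, Nfe2 and Itga2b passed with opposite signs. Before subtraction Prtn3 averaged 0.13 with 5 of 6 embryos above 0, so its place below 0 came from the subtracted profiles. For Ltf, both profiles contain the same Cy5 value of adult animal 6, 17.38 on 1 spot, so its agreement was not independent of that value.

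In the adults, no member passed the limma adjusted threshold, as was true of 0% of the 17039 features, while 1314 features had an unadjusted p under 0.05. Unadjusted, 3 of the 37 members had p under 0.05, where 7.71% of the features did. Erythroid genes lay above 0 in 8 of 21 cases (median -0.02), megakaryocyte genes in 4 of 5 (0.03) and granulocyte genes in 6 of 11 (0.04). With the Cy3 arrays turned in sign, these counts were 11 of 21, 4 of 5 and 5 of 11. All 6 animals were above 0 for 1 member (Prtn3), where 3.45% of the features measured in every animal were, and below 0 for 2 (Hba-x and Lmo2), where 2.82% were.

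Hba-a1 differed between the adult animals in the same way on its several spots. Averaged over layouts, animals 1 to 6 had -0.35, 0.24, -0.12, -0.89, -0.89 and -0.24 (mean -0.38 ± 0.45, SD, n = 6, limma adjusted p = 0.64). The value of animal 5 comes from the Cy5 layout alone, so its dye effect is not averaged out. Animals 4 and 5 were the lowest and animal 2 alone was above 0. Where both layouts were measured they gave the same sign, with -1.06 in Cy5 and -0.72 in Cy3 for animal 4, and 0.12 and 0.35 for animal 2. Animal 3 was the exception, with -0.26 in Cy5 and 0.03 in Cy3. All 6 spots were below 0 in animals 4 and 5, and all 6 above 0 in animal 2 once its layouts were averaged.

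Hba-x had -0.42, -0.08, -0.37, -0.69, -0.19 and -0.06 (mean -0.30 ± 0.24, SD, n = 6; limma adjusted p = 0.64). Lmo2, the bridging factor of the Tal1 complex, had -0.12, -0.24, -0.48, -0.52, -0.24 and -0.44 (mean -0.34 ± 0.16; limma p = 0.0081, adjusted p = 0.64). Prtn3 had 0.87, 0.20, 1.36, 0.12, 0.66 and 0.18 (mean 0.56 ± 0.49; limma p = 0.016, adjusted p = 0.64). The Prtn3 ratio differed by layout, at 1.37 with the mutant in Cy5 and -0.42 with the mutant in Cy3. Gata1, the lead regulator of red cells, was between -0.76 and 0.57.

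Most members behaved like Prtn3 in this respect. Only 10 of the 37, or 27.0%, had means of the same sign in both layouts, against 30.5% of all features. Itga2b was 0.67 in Cy5 and -1.03 in Cy3, Ppbp, another platelet chemokine, 0.50 and -1.10, Tal1 0.77 and -0.61, and Uros -0.21 and 0.82. The sign of the Cy3 arrays is taken as deposited, that is as already turned to mutant over pool; this is an inference. The adult means of 3 members rested on 1 array value beyond 10 in size each: without such values Ltf went from 0.49 to -0.29, Vwf from -0.09 to -0.58 and Ank1 from -0.77 to -0.07.

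**Figure D4:**
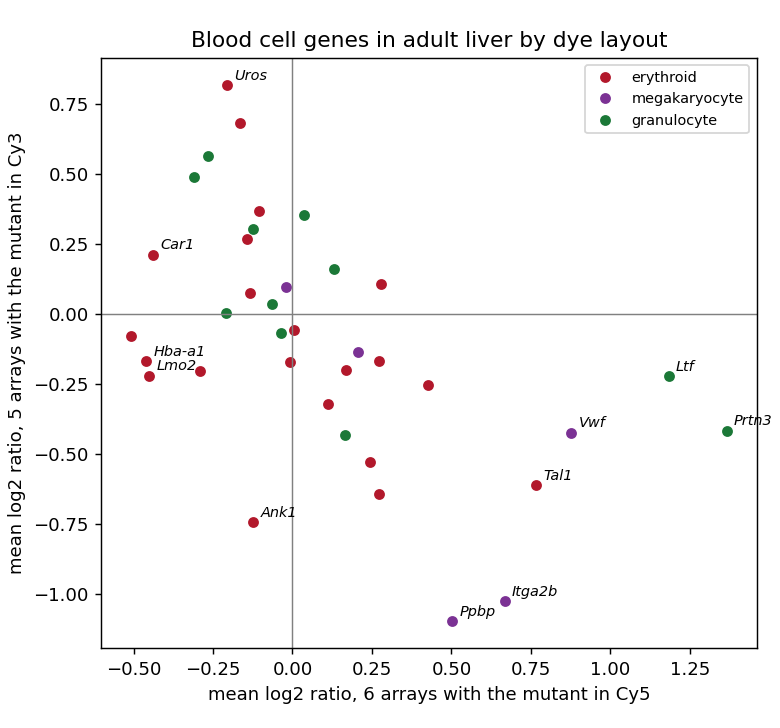
Mean log2 ratio of each of the 37 blood cell genes in adult liver with the mutant in Cy5 (horizontal axis, 6 arrays) and with the mutant in Cy3 (vertical axis, 5 arrays), coloured by lineage. Points in the upper left and lower right have opposite signs in the layouts, as 27 of the 37 genes do, with Itga2b, Ppbp and Prtn3 far to the lower right and Hba-a1 below 0 in both.

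Adult and fetal ratios were compared in the shared layout, the mutant in Cy5, and no member passed the limma adjusted threshold, where 0.141% of 16314 features did. Unadjusted, 6 of 34 members had p under 0.05, where 20.2% of the features did. Car1 came nearest: the adult arrays had -0.66, -0.60, -0.46, -0.47, -0.02 and -0.43 and the embryos 0.33 to 1.38, a difference of -1.06 (limma SE 0.19, p = 8.5e-05, adjusted p = 0.055). The adult and fetal values of Car1 did not overlap, and it was the 1 member of which this was true, where 2.20% of the features had no overlap. It passed, at a limma adjusted p of 0.017, without adult animal 1, where far more features passed than in the main fit, as given below. It also passed at a limma adjusted p of 0.042 without embryo 5. Car1 rests on 1 spot, and its adult mean was -0.44 with the mutant in Cy5 but 0.21 with the mutant in Cy3. The other 5 were Ngp (0.62, adjusted p = 0.11), Uros (-0.38), Prtn3 (1.24), Bpgm (0.48) and Tal1 (0.59), each with overlapping groups. Pool and age change together in this comparison, and they cannot be told apart. The mix of sexes differs as well, since all adults are male and the embryos are of both labelled sexes. Its part was not tested.

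Between the embryos labelled female and male, no member passed the limma adjusted threshold, where 0.0116% of 17212 features did, and 4 of 34 had an unadjusted p under 0.05, where 3.18% did. The sexes did not overlap for 6 members, where 9.45% of the features did not. Bpgm was at -0.32 ± 0.18 in males and 0.20 ± 0.06 in females (SD, n = 3 each), Mpo at -0.31 ± 0.07 and 0.05 ± 0.01, and Elane at -0.50 ± 0.21 and -0.10 ± 0.24. Of the 4 megakaryocyte and platelet genes, 3 lay the other way without overlap, with Pf4 at 0.62 ± 0.25 in males and 0.18 ± 0.16 in females, Gp9 at 0.49 ± 0.04 and 0.24 ± 0.18, and Vwf at 0.31 ± 0.38 and -0.52 ± 0.27. Itga2b, the remaining one, averaged 0.16 in males and 0.32 in females, with overlapping values. The limma adjusted p of each was 0.998. The Bpgm split came from 1 of its 2 spots, with -0.03, -0.97 and -0.50 in males and 0.31, 0.60 and 0.81 in females. The other Bpgm spot had -0.55, -0.05 and 0.21 in males and 0.07, -0.06 and -0.51 in females. The Vwf gap came mainly from 1 of its 3 spots, at 1.79 in embryo 3 and -2.45 in embryo 4, with no value in embryo 5. On the remaining Vwf spots the sexes overlapped. Within the L embryos alone (1 male and 3 females), the difference of females minus males was 0.35 for Bpgm, 0.30 for Mpo, -0.31 for Pf4 and -1.27 for Vwf. The fit with the letter as a block must give the same values, because both K embryos are male. Sex largely follows the embryo letter and the pool label, with embryo 3 the 1 male of the second kind.

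Other genes of the same lineages were taken from fixed lists, and none of their members passed the limma adjusted threshold in embryos or adults. In embryos, 14 of 33 further erythroid genes lay above 0 (median -0.08), 8 of 10 further megakaryocyte genes did (0.10), 9 of 20 further granulocyte, mast cell and eosinophil genes did (-0.04), 10 of 15 iron and haem genes did (0.13), and 8 of 11 stem and progenitor genes did (0.02). The iron gene Hjv, a coreceptor that sets hepcidin, had 0.28, 0.22, 0.52, 0.52, 0.74 and 0.71 in embryos (adjusted p = 0.078), and Lcn2, a neutrophil granule protein that hepatocytes also make, -0.51, -0.49, -0.42, -0.04, -0.43 and -0.29 (adjusted p = 0.091). Tmem14c, a porphyrin transporter needed for haem synthesis, had -1.75, -2.96 and -2.33 in male and 0.91, 0.41 and -0.15 in female embryos (difference 2.73, limma p = 2.1e-04, adjusted p = 0.72). In adults, 16 of 33 further erythroid, 2 of 12 megakaryocyte, 12 of 21 granulocyte and 5 of 18 iron and haem genes lay above 0; Hamp, which encodes hepcidin, averaged -0.73 (adjusted p = 0.64).

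Markers of other cell types also had medians off 0, and their part in the blood cell ratios was not tested. Hepatocyte markers lay above 0 in 10 of 14 cases in embryos (median 0.20) and in 1 of 15 in adults (median -0.45). Exocrine pancreas markers lay below 0 in 4 of 4 cases in embryos (median -1.23), with Cpa1 and Cela2a past the threshold. Cholangiocyte markers lay above 0 in 1 of 5 cases in embryos (median -0.36; 3 below 0 with an unadjusted p under 0.05) and 3 of 5 in adults (0.09). Stellate cell and fibroblast markers lay above 0 in 7 of 8 (median 0.08) and 3 of 8 (-0.06), endothelial markers in 5 of 7 (0.09) and 3 of 9 (-0.17), and cell cycle genes in 8 of 10 (0.08) and 5 of 10 (0.05). Macrophage and Kupffer cell genes lay above 0 in 5 of 10 cases in embryos (median 0.03) and 7 of 12 in adults (0.01), and lymphocyte genes in 6 of 9 (0.02) and 4 of 12 (-0.09).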

How the data were processed

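Liver RNA of 12 mutants was measured on 17 two-colour cDNA arrays, 11 of adults and 6 of embryos, with 20078 to 20697 values per array and array medians between -0.11 and 0.09. The values are the log2 ratios that the authors deposited; log base and direction are inferred, and image analysis and normalization were not stated in any source available. In the embryos the value of probe p stands in row p + 11, and this was applied to probes up to 20000, leaving 794 rows unnamed. Over the rows so named the embryo mean ranked with the adult dye profile at a Spearman correlation of 0.382, against 0.0164 as deposited. The median SD over the Hba-a1 spots was 0.21 so named and 0.41 as deposited. It was 0.15 at the lowest of the other offsets, so that spread does not single out a shift of 11. Afp, on 3 spots, averaged -8.40 in embryos so named and 0.14 with the names as deposited. Genes are means of their spots, and 10 of the 14 members with several spots in embryos had spot means of both signs. Symbols came from the platform annotation, for 12771 probes, and all of them were found in RefSeq.

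Dye swaps of an adult were averaged to 1 animal. Ratios were tested with limma 3.58.1 in R 4.3.3 (lmFit, eBayes), with a value needed in 4 of 6 animals and Benjamini-Hochberg adjustment over all features at 0.05; the procedure was tested on simulated data. P-values measure the spread between the mutants measured. Any listed gene may be named, with animal values for up to 3 of smallest p per role and for those on one side of 0 in embryos; of other lists, genes past the threshold or up to 3 of smallest p. Members and lists were chosen with earlier results of these data known. Alternatives were other row names, dye handling, centring, large values, filters, probes, blocks and left-out animals.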

Additional observations from a re-analysis of the deposited data

Results flagged for a closer look

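Single animals stood apart from the others of their group in 11 of 71 groups of animals examined (15.5%), by a gap test that marks about 1 in 20 by chance; over all features the same test marked 12.6% of such groups. Among the embryos these were Uros in embryo 6 (-0.20), Fech in embryo 1 (-1.44), Ank1 (-0.55) and Kel (-0.29) in embryo 3, Car2 in embryo 1 (-0.61) and Itga2b in embryo 5 (0.69). Among the adults they were Tal1 (1.58), Itga2b (1.56) and S100a8 (-1.91) in animal 5, Ank1 in animal 2 (-4.11) and Ltf in animal 6 (4.08). Adult animal 5 has the mutant in Cy5 only. The Ank1 and Ltf values in adults each contain 1 array value beyond 10 in size.

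Male and female embryos lay on opposite sides of 0 for 3 of 34 members, as they did for 1.87% of the features measured in every embryo. Females minus males gave 0.52 for Bpgm, -0.83 for Vwf and 0.35 for Mpo, with limma adjusted p = 0.998 for each. For each of these genes, the sexes overlapped on at least 1 spot.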

How the results depend on the processing

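Over the named members' alternatives, 324 results kept their direction and side of the threshold, 16 newly passed and 12 reversed. With the fetal names as deposited, embryo means became 0.0033 for Hba-a1, -0.25 for Gp9, 0.029 for Elane and 0.21 for Ngp, 6 granulocyte members lay above 0, adult minus fetal gave -0.044 for Ngp, 1579 features and 3 members (Alad, Car1 and Uros) passing, and female minus male gave -0.078 for Bpgm, 2.03 for Vwf and -0.019 for Mpo. With the dye profile subtracted, 4977 features and 14 members passed in embryos, and Itga2b was -0.52. With the profile of turned Cy3 arrays subtracted, an alternative chosen after seeing the data, 4218 features and 7 members passed, 1 granulocyte member lay above 0, and Hba-a1 was 0.043.

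The 26 fetal features became 83 without values beyond 10, 88 by probe, 61 with values in all animals, 81 with robust eBayes, 2 without embryos 5 and 6, and 2 to 5 without single embryos; granulocyte members above 0 then numbered 1 at the lowest, without embryo 3, and 4 at the highest. The adult count of 0 became 1760 with Cy3 arrays turned (4 members: Alad, Itga2b, Prtn3 and Tal1), 1106 in Cy5 only and 699 in Cy3 only (1 member, Itga2b, with Prtn3 at -0.42). Of the megakaryocyte members, 1 lay above 0 in Cy3 only, 2 in animals with both dyes, and 2 to 4 without single animals (2 without animal 5). The 23 adult minus fetal features became 42 without values beyond 10 and 36 with values in all animals (1 member each, Car1). They became 9 with both dyes averaged (Uros at 0.045), and 4 to 1224 without single animals, with 0 to 1 members. The 1224 came without adult animal 1, the fit in which Car1 passed at a limma adjusted p of 0.017. The 2 sex features became 0 without values beyond 10 and with values in all animals, 15 with the embryo letter as a block, 15 with the female-labelled pool only, and 0 to 4 without single embryos.

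With the array number as a replicate block, adult minus fetal left 2 features; those numbers belong to unrelated animals, so they pair nothing. Signal over background was not available to bound faint spots.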
